A study of Homo sapiens with 8 samples.

Results

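The genes described here are 9 genes of the p53 pathway, MDM2, MDM4, PPM1D, CDKN1A, BTG2, SESN1, SESN2, TP53INP1 and ZMAT3, and the measurements are the Cut&Run peaks of PML::RARA at them. A peak was taken for a gene when the list carried the gene's symbol, and peaks without any symbol were added when their centre lay within 50 kb of such a peak on the same chromosome. By this rule 12 peaks of 15412 belonged to the 9 genes, 7 with a symbol and 5 without. In the whole list 7169 peaks carried a symbol, of 6546 genes. Cut&Run sequences the DNA that a nuclease, tethered through an antibody to a chromatin protein, cuts free in isolated nuclei. U937-PR9 is a clone of the monocytic line U937 that carries a PML::RARA transgene behind a zinc-inducible promoter. Cells of this clone were given ZnSO4 at 100 μM (induced) or water (uninduced) for 5 h, and anti-PML-RARA and anti-RARA antibodies were each used on 2 replicates of both conditions, which makes 8 libraries. The list analysed here is that of induced cells with the anti-PML-RARA antibody. The peak lists of the other 3 groups were not analysed here, so no value below compares induced with uninduced cells.

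The list gives 1 value per peak and none per replicate. The values are therefore descriptions, without an error between replicates and without a test. Peak height is the largest signal inside a peak, total signal is the sum over the peak, and rank 1 is the highest or widest of the 15412 peaks. The read depth behind the signal is unknown, and RNA of these genes was not part of the list.

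The p53 protein is a transcription factor that accumulates after DNA damage and other stress and switches on genes that halt the cell cycle, trigger apoptosis, repair DNA or limit growth. MDM2, an E3 ubiquitin ligase, and its relative MDM4 hold p53 in check, and PPM1D is a phosphatase that reverses its activation, so that these targets form feedback loops. CDKN1A encodes the cyclin-dependent kinase inhibitor p21. PML bodies are known as a meeting place of p53 and its modifying enzymes, and PML::RARA is known to scatter these bodies in acute promyelocytic leukemia. U937 cells are known to lack functional p53.

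Of the 9 genes, 6 had a peak with their symbol, namely MDM2, MDM4, PPM1D, CDKN1A, SESN1 and SESN2. In the whole list 30.0% of the 20090 protein-coding genes had one. BTG2, TP53INP1 and ZMAT3 had no row. BTG2 nevertheless had a peak over its start site, which the list carries under the symbol LINC01136. When a gene was instead taken as bound where an apex, the point of largest signal, lay within 1 kb of any of its start sites, 7 of the 9 genes had a peak, beside 39.3% of protein-coding genes. Taking any peak that overlapped a gene or stood less than 10 kb away also gave 7 genes, beside 53.3% of protein-coding genes.

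**Figure D1:**
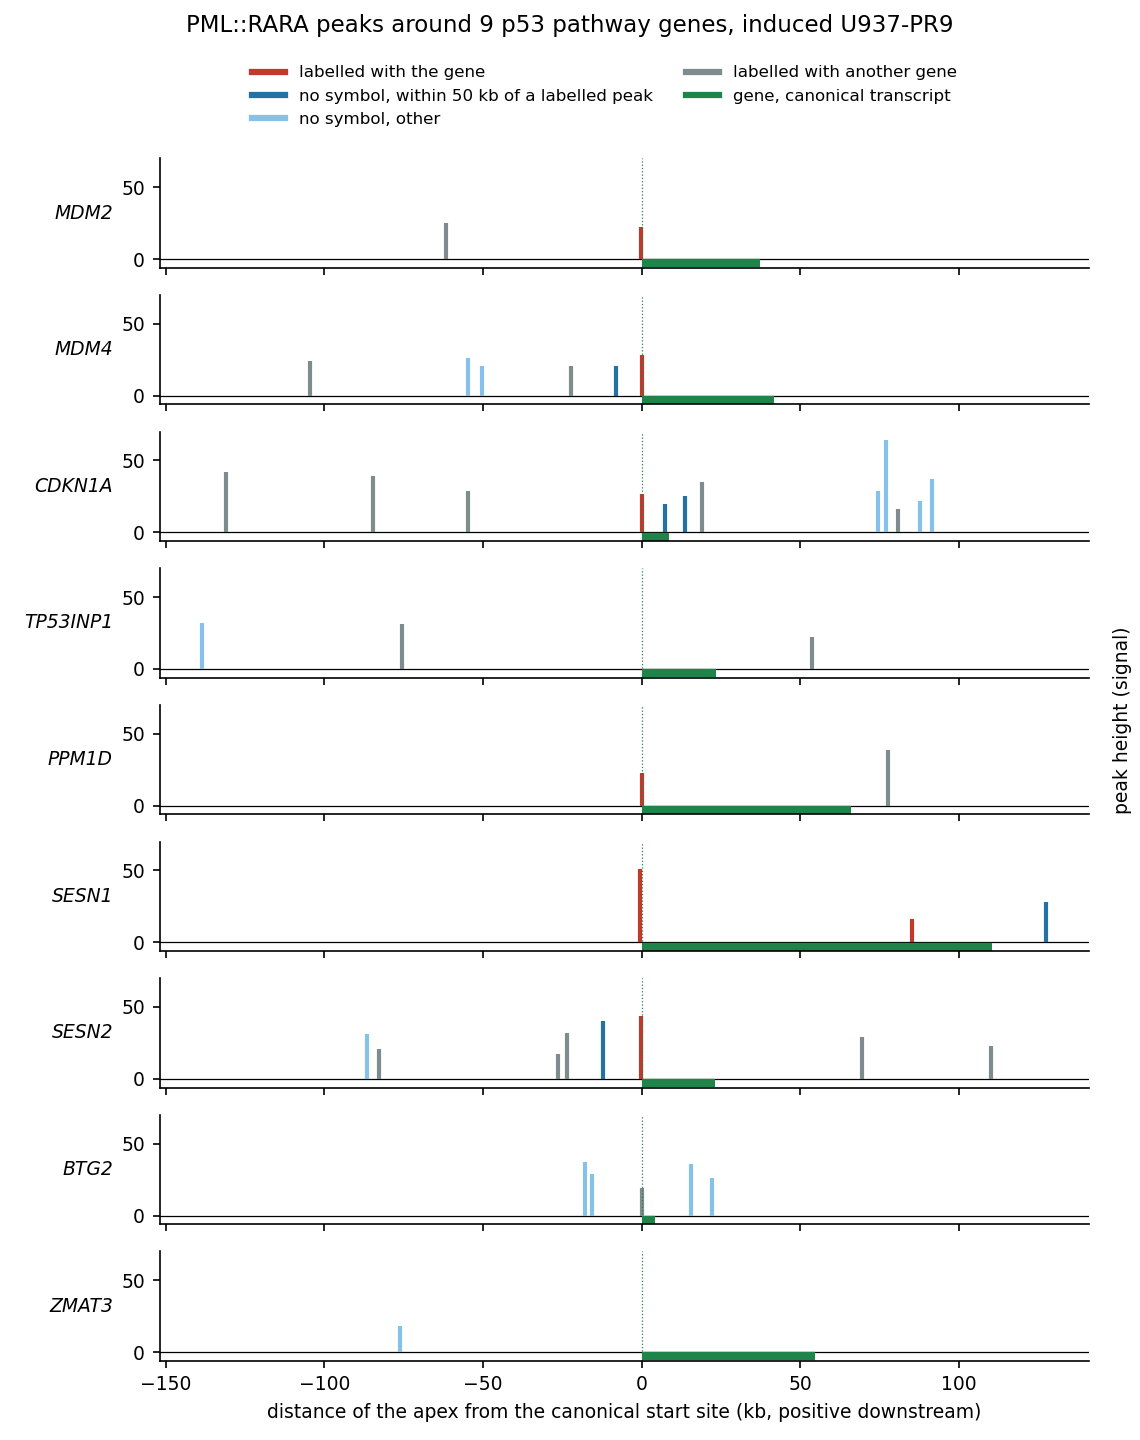
Peaks around each of the 9 genes. The horizontal axis is the distance of the apex from the canonical start site in kb, positive along the gene, and the bars give peak height in signal. Red bars carry the gene's symbol, dark blue bars have no symbol and lie within 50 kb of a red one, light blue bars are other peaks without a symbol, grey bars carry another symbol, and the green block is the gene. SESN1 has the tallest red bar, at 51, while TP53INP1 and ZMAT3 have no bar over the gene.

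The reference sequence under the apexes is given first, since it shows what kind of DNA the peaks stand on. It was read from hg19 on the strand of the gene (minus for SESN1), in windows of up to 81 bases around the apex that hold no annotated UTR, in lower case with motif matches in capitals. The capitals mark the SP/KLF word GGGCGG, the NF-Y word CCAAT, the RUNX word TGTGGT and the ETS word CCGGAAG, or their reverse complements. At the strong SESN1 peak the apex lies in annotated UTR, and no sequence is shown. The MDM4 window stops short of its apex, at chr1:204485509.
MDM2, chr12:69201700-69201780: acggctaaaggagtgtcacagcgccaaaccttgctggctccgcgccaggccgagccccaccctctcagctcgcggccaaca
MDM4, chr1:204485469-204485506: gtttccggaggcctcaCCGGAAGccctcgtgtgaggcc
PPM1D, chr17:58677463-58677543: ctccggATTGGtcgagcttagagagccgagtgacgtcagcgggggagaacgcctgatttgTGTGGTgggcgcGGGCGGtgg
CDKN1A, chr6:36646437-36646486: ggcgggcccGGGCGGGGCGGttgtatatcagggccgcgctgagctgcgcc
BTG2, chr1:203274536-203274616: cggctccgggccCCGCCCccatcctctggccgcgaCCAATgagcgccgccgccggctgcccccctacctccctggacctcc
SESN1 (weak peak), chr6:109330771-109330851: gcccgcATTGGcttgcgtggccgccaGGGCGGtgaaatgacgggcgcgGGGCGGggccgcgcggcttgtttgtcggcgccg
SESN2, chr1:28585809-28585889: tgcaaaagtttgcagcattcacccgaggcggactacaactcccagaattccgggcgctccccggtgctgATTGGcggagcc

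These windows are rich in G and C, at 60.5% for SESN2, 66.7% for MDM2 and 79.0% for BTG2. SP/KLF words stand in the windows of CDKN1A, PPM1D, BTG2 and the weak SESN1 peak. At CDKN1A a pair of them overlaps. None of the 4 words falls in the window of MDM2.

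Among the regulators of p53, the MDM2 peak was of modest height and of more than average width. MDM2 (ENSG00000135679, chr12:69201957-69239324, plus strand) had 1 peak, chr12:69201495-69202797, with a height of 22, a width of 1303 bp and a total signal of 11967. Its height ranked 9138, with 35.9% of all peaks lower, and its width ranked 3623, with 76.4% narrower. The apex lay 217 bp upstream of where MDM2 starts, and the peak ran 462 bp upstream and 841 bp from the start site into the gene. No peak without a symbol lay within 50 kb.

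MDM4, which inhibits the transactivation domain of p53, had the highest peak of the regulators among the 9 genes. MDM4 (ENSG00000198625, chr1:204485507-204527248, plus strand) had the peak chr1:204485070-204486112, with a height of 28, a width of 1043 bp and a total signal of 7930. The height ranked 5666 and the width 5549, so that the peak was above 60.1% and 63.9% of all peaks. Its apex lay 2 bp inside the nearest start site and 25 bp upstream of the canonical one. A neighbour without a symbol, chr1:204476917-204477381, had a height of 21 (rank 9879) and a width of 465 bp (rank 12522), and its centre was 8442 bp from that of the promoter peak. The nearest protein-coding start site to this neighbour was that of MDM4 itself.

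At PPM1D the peak was again wide for its height. PPM1D (ENSG00000170836, chr17:58677554-58743641, plus strand) had the peak chr17:58676931-58678486, with a height of 23, a width of 1556 bp and a total signal of 11181. By height it ranked 8433, with 40.7% of peaks lower, and by width 2294, with 85.1% narrower. The apex lay 51 bp upstream of where PPM1D starts, with no peak without a symbol within 50 kb.

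CDKN1A, which like BTG2 acts in cell cycle arrest, had the widest peak of the 9 genes. CDKN1A (ENSG00000124762, chr6:36644237-36655114, plus strand) had the peak chr6:36646065-36648968, which was 2904 bp wide. Its width ranked 248 of all peaks, with 98.4% narrower, whereas its height of 27 ranked 6155, with 56.7% lower. The total signal of 22808 ranked 1115. The apex was 14 bp upstream of the canonical start site and 10 bp from the nearest one, but the peak was far from symmetrical, with 426 bp upstream and 2478 bp from the start site on. Its mean signal per base was 7.85, below that of MDM2, at 9.18.

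CDKN1A also had more neighbours than any of the other 8 genes under the rule. The peak chr6:36653692-36654218, with a height of 20 (rank 10691) and a width of 527 bp (rank 11594), had its apex in exon 3, in the 3′ UTR. The peak chr6:36659935-36660291, with a height of 25 (rank 7226) and a width of 357 bp (rank 13922), lay beyond the end of the gene, and its nearest protein-coding start site was that of RAB44, at 5471 bp. Their centres were 6438.5 and 12596.5 bp from that of the promoter peak.

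BTG2, an antiproliferative gene and classical p53 target, had no row of its own but had a peak at its start site under another symbol. BTG2 (ENSG00000159388, chr1:203274619-203278730, plus strand) shares its promoter with a long noncoding RNA on the minus strand that the list calls LINC01136 and RefSeq now calls BTG2-DT. The peak chr1:203274078-203275210 carried that symbol. Its apex was 43 bp upstream of a BTG2 start site and 133 bp upstream of the BTG2-DT start site. The height of 19 ranked 11488, with 19.5% of peaks lower, and the width of 1133 bp ranked 4813, with 68.7% narrower. Since it has no peak with its own symbol, BTG2 adds no neighbours under the rule, but 4 peaks without a symbol stood within 50 kb of its start. Those upstream had heights of 37 and 29, at 17888 and 15837 bp, and those downstream had heights of 36 and 26, at 15616 and 22143 bp. All 4 were higher than the peak at the BTG2 start.

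The sestrins, stress-induced proteins that restrain mTORC1 and limit oxidative damage, had the highest peaks of the 9 genes. SESN1 (ENSG00000080546, chr6:109305512-109416049, minus strand) had 2 peaks with its symbol, as did 8.42% of the 6546 genes in the list with more than 1. The strong one, chr6:109415248-109417187, had a height of 51, a width of 1940 bp and a total signal of 36365. These ranked 551, 1177 and 265 in the whole list, so that 96.0% of peaks were lower, 92.3% narrower and 98.3% weaker in total signal. Its mean signal of 18.7 per base was the highest among the 7 peaks with a symbol.

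This SESN1 peak covers a promoter that runs in both directions. Its apex was 589 bp upstream of the SESN1 start site but 46 bp upstream of a start site of CEP57L1, a centrosomal gene on the plus strand. The apex lay inside the annotated span of CEP57L1, which begins at chr6:109416313. The list gives the symbol SESN1 alone. Which of these start sites the signal belongs to cannot be told apart from its position.

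The weak SESN1 peak, chr6:109330593-109331153, was near the floor of the list. Its height of 16 was shared by 1115 peaks and ranked 14278, with 0.130% of peaks lower, and its width of 561 bp ranked 11135. It lay in intron 1 of the canonical transcript, 53 bp upstream of an internal start site and 85238 bp downstream of the canonical one. The neighbour chr6:109288087-109288902, inside ARMC2 beyond the 3′ end of SESN1, had a height of 28 (rank 5666) and a width of 816 bp (rank 7854). Its centre was 42378.5 bp from that of the weak peak, which made it the farthest peak that the rule took in. The nearest peak without a symbol beyond the limit, 50314.5 bp from the MDM4 peak, had a height of 21.

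SESN2 (ENSG00000130766, chr1:28586029-28609002, plus strand) had the peak chr1:28585425-28586781, with a height of 44, a width of 1357 bp and a total signal of 16544. By height it ranked 1234, with 91.0% of peaks lower, and by width 3312, with 78.5% narrower. The apex was 180 bp upstream of the start site. Its neighbour chr1:28573559-28574187 was nearly as high, at 40 (rank 1901, with 86.4% of peaks lower), but only 629 bp wide (rank 10166). The centres were 12230 bp apart, and the nearest protein-coding start site to the neighbour was that of ATP5IF1, at 11244 bp. The apex of the neighbour lay inside another annotated gene, ENSG00000271398.

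**Figure D2:**
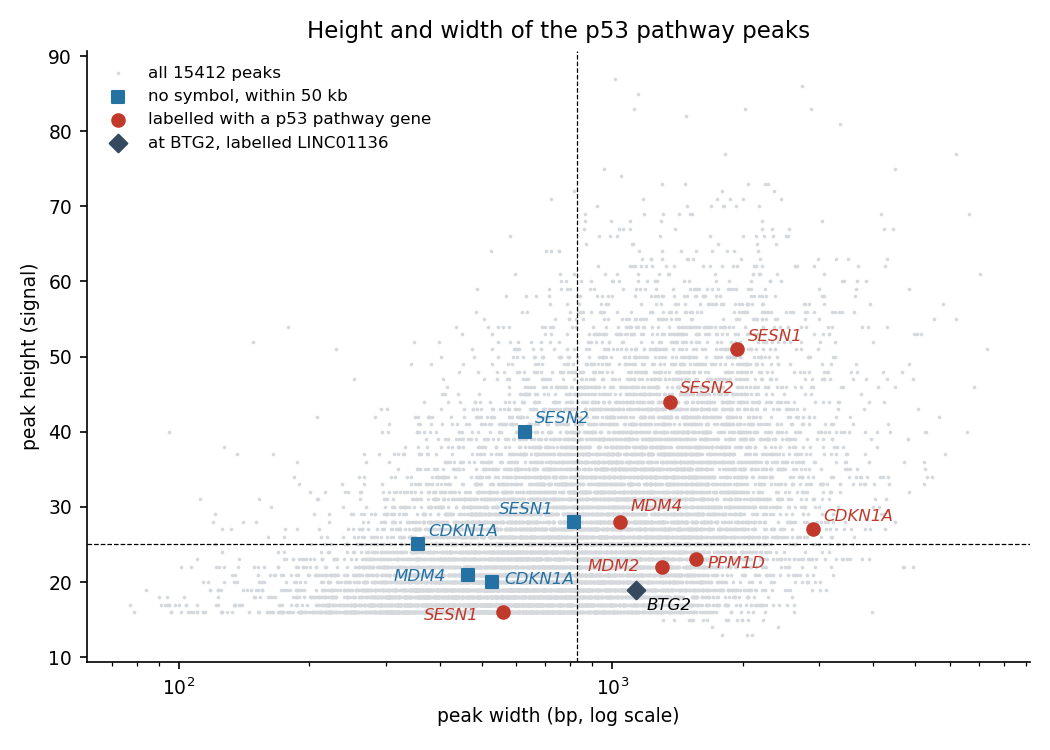
Height against width of all 15412 peaks (grey dots), with the 7 peaks that carry a symbol of the p53 pathway genes (red circles), their 5 neighbours without a symbol (blue squares) and the peak at BTG2 (dark diamond). The horizontal axis is width in bp on a log scale, the vertical axis is height in signal, and the dashed lines are the medians of all peaks, 829.5 bp and 25. The strong SESN1 peak and the SESN2 peak stand high at 51 and 44, and CDKN1A stands far to the right at 2904 bp.

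TP53INP1 and ZMAT3 had no peak near them. TP53INP1 (ENSG00000164938, minus strand) encodes a nuclear protein that promotes p53 phosphorylation and autophagy. Its nearest peak was 29571 bp from the gene, carried the symbol of the cyclin gene CCNE2, and had a height of 22. ZMAT3 (ENSG00000172667, minus strand) encodes a zinc finger RNA-binding protein. Its nearest peak was 75657 bp away, had no symbol, and had a height of 18. With 1 list, the lack of a peak says only that none passed the authors' threshold there.

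As a group, the 7 peaks with a symbol were about as high as other such peaks and wider. Their median height was 27, from 16 to 51, against 26 for all peaks with a symbol and 25 for all peaks. The median width was 1357 bp, from 561 to 2904 bp, against 1108 bp for all peaks with a symbol and 829.5 bp for all peaks. Of the 7, 4 were above the median height of the whole list, as were 52.3% of all peaks with a symbol, and 6 were above the median width, as were 70.9%. Median total signal was 11967 against 10082.

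The shape and base composition of these 7 peaks were close to those of other promoter peaks. The total signal filled a median of 31.2% of the rectangle of height and width, against 34.7% for all peaks with a symbol. GC content had a median of 63.7% against 62.7%, and the ratio of observed to expected CpG was 0.78 against 0.76. The median distance from the apex to the gene's nearest start site was 53 bp, against 102 bp over the 6982 peaks whose gene has a start site in GENCODE.

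The 5 neighbours differed from the promoter peaks in width rather than in height. Their heights ran from 20 to 40 with a median of 25, and the median of their widths, which spanned 357 to 816 bp, was 527 bp, so that 0 of 5 were above the median width of all peaks, beside 31.8% of all peaks without a symbol. All peaks without a symbol had medians of 23 and 634 bp. GC content had a median of 52.7% and the CpG ratio one of 0.24, likewise close to the 52.98% and 0.25 of all peaks without a symbol. The CpG ratio was spread widely, however, from 0.12 to 0.80, with the highest value at the neighbour of SESN2. Of the 6 genes, 4 had such a neighbour (CDKN1A, SESN1, SESN2 and MDM4), and of all 6546 genes in the list 46.6% had one.

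**Figure D3:**
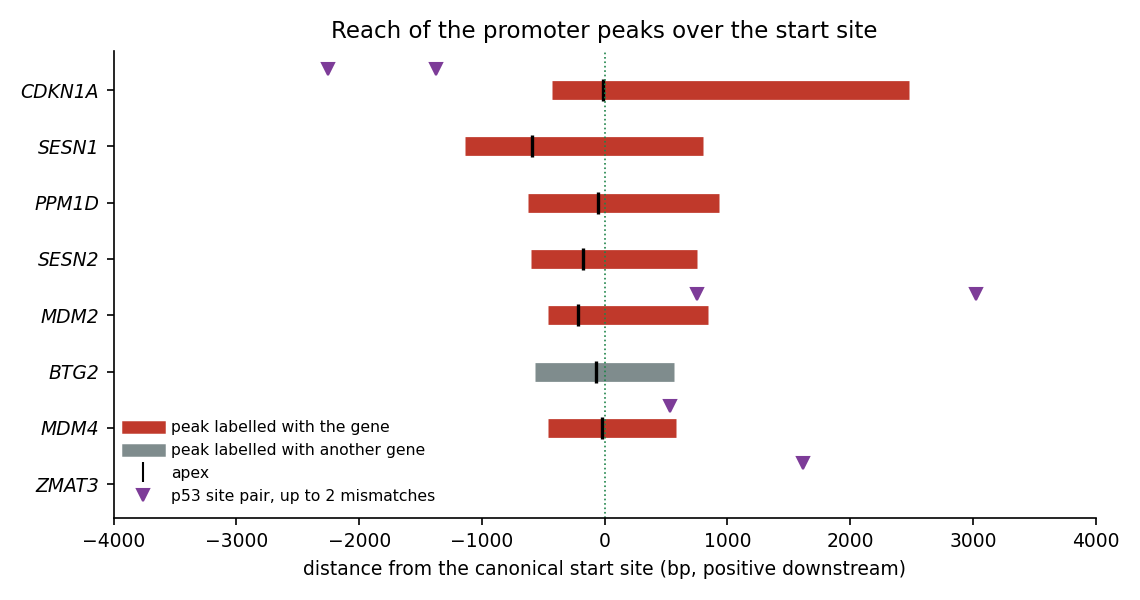
Extent of the peak at the start site of each gene. The horizontal axis is the distance from the canonical start site in bp, positive along the gene, bars span the peak, black ticks mark the apex, and triangles mark pairs of p53 sites with at most 2 mismatches, apart from those of BTG2, which are not drawn. The CDKN1A peak reaches 2478 bp into the gene while its p53 pairs lie upstream of the peak, the ZMAT3 pair has no peak, and TP53INP1, which has neither a peak nor a pair in this range, is not drawn.

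A p53 response element is a pair of 10-base sites. Pairs of directly adjoining sites were searched for in the 9 genes with 5 kb on either side, allowing 2 mismatches over the 20 bases. Pairs with bases between the sites were not searched for. The search covered 519.2 kb and found 23 pairs, of which 2 (8.70%) lay inside a peak, while peaks covered 12.5 kb (2.41%) of the sequence. Those inside a peak, those of CDKN1A and the ZMAT3 pair without a mismatch are shown, to place the peaks beside such matches. A match is not by itself an element that p53 acts through. The sequences are written on the strand of the gene (minus for ZMAT3). Capitals mark the pair of sites, and lower case the 12 bases on each side. The distal CDKN1A pair is given without its flanks.
MDM2, chr12:69202691-69202734: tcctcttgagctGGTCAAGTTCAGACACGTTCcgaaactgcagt
MDM4, chr1:204486049-204486092: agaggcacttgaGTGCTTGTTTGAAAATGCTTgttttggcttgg
CDKN1A (distal), chr6:36644226-36644245: GAACATGTCCCAACATGTTG
CDKN1A (proximal), chr6:36645096-36645139: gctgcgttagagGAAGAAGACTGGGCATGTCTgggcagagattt
ZMAT3, chr3:178787964-178788007: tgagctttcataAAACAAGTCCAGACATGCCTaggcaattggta

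Of the 2 pairs found at MDM2 and the 3 found at MDM4, 1 each lay inside a peak, and these are the ones shown. The MDM2 pair inside the peak lies in intron 1, 755 bp downstream of the start site, near the end of the peak. The pair overlaps a single 6-base retinoid site, not a pair of them. Such single sites are common, in 81.1% of all peaks with a symbol over their whole width. It is an intronic p53 element known to help drive the feedback promoter of MDM2, and other elements there may have been missed by the search. The MDM4 pair inside the peak lies in intron 1, 536 bp downstream of the start site. Both of these p53 pairs hold 2 mismatches, and neither is within 200 bp of the apex. The other MDM2 pair, in intron 2, was 2178 bp from the nearest peak, and the other two at MDM4, in introns 1 and 7, were 8062 and 25281 bp from it, likewise with 2 mismatches.

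At CDKN1A both pairs, which are the distal and proximal elements known from work on p21, lay outside the peak. The distal pair, at -2256 bp from the canonical start site, was 1820 bp from the peak, and the proximal pair, at -1374 bp, was 938 bp from it. The only pair without a mismatch was that of ZMAT3, in intron 1 and 1612 bp from the start site, and its nearest peak was 77665 bp away. ZMAT3 held 10 of the 23 pairs, in the longest stretch searched (122.1 kb), and SESN2 held 0.

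Motifs were then counted within 200 bp of the apex of the 7 peaks with a symbol, on both strands. The SP/KLF word GGGCGG was present in 5 of 7, as in 76.2% of all peaks with a symbol and 48.7% of all peaks. In this window it was lacking at MDM4 and at the strong SESN1 peak, but over the whole peaks it was in 7 of 7, beside 87.9%. The ETS words AGGAAGT or GGGAAGT were found at CDKN1A and MDM2, in 2 of 7 against 22.3% of all peaks with a symbol. The RUNX word TGTGGT was found at PPM1D (15.4% of all peaks with a symbol), and the C/EBP word TTGCNNAA at SESN2 (10.3%). The AP-1 word TGANTCA and the E-box CACGTG were in 0 of 7, beside 7.41% and 12.6%.

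RARA, the DNA-binding partner in PML::RARA, recognises pairs of 6-base retinoid sites. Single sites, either AGGTCA with its variant GGGTCA or else AGTTCA with its variant GGTTCA, lay within 200 bp of the apex in 1 of 7 peaks, that of SESN2, beside 45.6% of all peaks with a symbol. Over the whole width of the peaks, 6 of 7 had one, beside 81.1%. Direct repeats of such sites, 0 to 5 bases apart, were in 0 of 7 by either window, and in 0.921% of all peaks with a symbol within 200 bp. The p53 10-base site without a mismatch was found at PPM1D alone within 200 bp, beside 7.14%, and the pair in 0 of 7, beside 0.405%. Over the whole peaks, the 10-base site was in 2 of 7 (PPM1D and the strong SESN1 peak), beside 21.7%, and the pair in 2 of 7 (MDM2 and MDM4), beside 2.16%.

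A pair of further words was chosen after the sequences had been seen. The NF-Y word CCAAT was within 200 bp of the apex at MDM2, PPM1D, SESN2 and the weak SESN1 peak, 4 of 7 against 44.1% of all peaks with a symbol. The ETS word CCGGAAG was found at MDM4 alone, 21 bp upstream of the apex and again 11 bp downstream, beside 21.8%. Of the 5 neighbours, 2 had one of the ETS words AGGAAGT or GGGAAGT (40.5% of all peaks without a symbol), 2 an AP-1 word (26.7%), 2 a retinoid site (63.7%), 2 an SP/KLF word (24.9%) and 2 an NF-Y word (35.6%). The AP-1 words were at the neighbours of MDM4 and SESN1, at 184 and 37 bp from the apex.

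**Figure D4:**
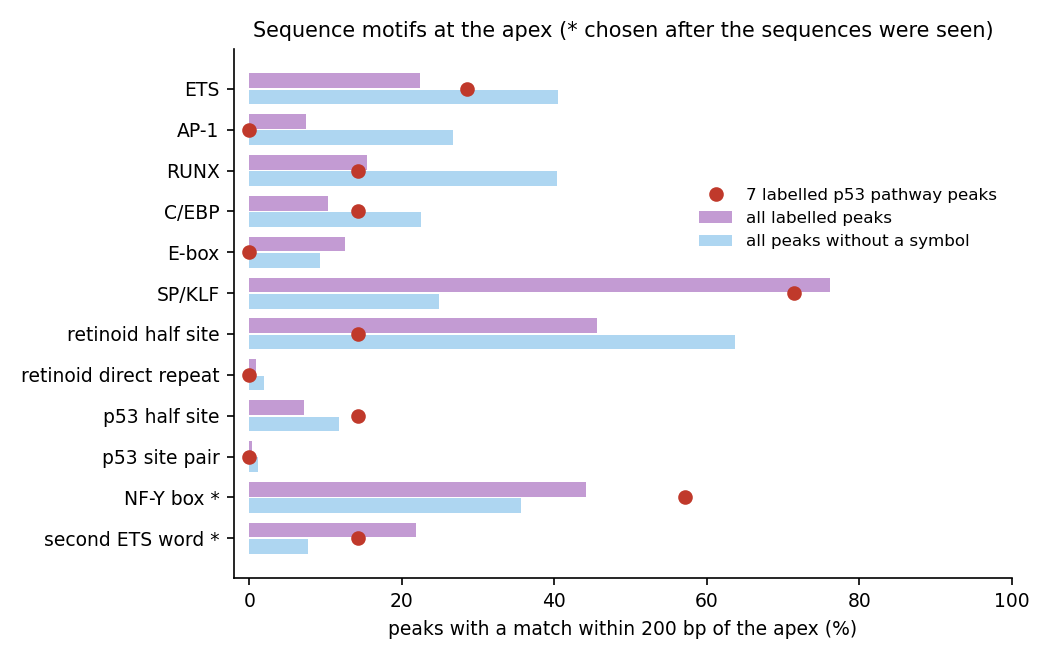
Share of peaks with each motif within 200 bp of the apex. The horizontal axis is the percentage of peaks, red dots are the 7 peaks with a symbol of the p53 pathway genes, purple bars are all 7169 peaks with a symbol and blue bars are all peaks without one. SP/KLF is the most frequent word in the 7 peaks, at 5 of 7, and AP-1, the E-box, the retinoid direct repeat and the p53 pair are at 0 in this window.

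The 9 genes are part of a wider list of 88 p53 pathway genes, compiled by role from general knowledge. Of these, 57 (64.8%, Wilson 95% interval 54.4 to 73.9%) had a peak with their symbol. Of the 79 genes besides the 9 it was 51 (64.6%), beside the 30.0% of all protein-coding genes, whatever their RNA level. The interval covers counting only and is not a test, since the genes were picked by hand and not drawn at random. The RNA levels of these genes were not analysed here. The highest peak of each of the 57 genes had a median height of 28 and a median width of 1230 bp at the widest, against 27 and 1145.5 bp over all 6546 genes.

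Among the p53 family and its regulators, 12 of 16 genes had a peak with their symbol. DAXX, a chaperone that works with MDM2, had the highest at 39, and CDKN2A, whose alternative product ARF inhibits MDM2, the widest at 2439 bp. The 4 without were TP63, TP73, HIPK2 and TP53INP1. MDM2, at 22, and PPM1D, at 23, were close to the median of this role, 22.5.

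Among the upstream kinases and coactivators it was 8 of 12, with the checkpoint kinase gene CHEK2 highest at 47 and the acetyltransferase gene EP300 widest at 1920 bp. ATM, CREBBP, JMY and PPP1R13B were without, although a peak with the symbol of its neighbour NPAT stood within 1 kb of an ATM start site. Among the cell cycle arrest genes, 9 of 15 had a peak. These include CCNE2 and CDKN1A, both of which the paper counts among upregulated genes of cell cycle progression. The kinase gene PLK3 had the highest at 53, and GADD45B the widest at 5231 bp, ahead of CDKN1A.

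The apoptosis genes had the lowest share, 10 of 20, and the Wilson intervals of all roles overlapped. CASP8, the initiator caspase gene, was highest there at 42, and BID, which caspase-8 cleaves, widest at 3063 bp. Of the repair genes, 7 of 10 had a peak, led in height by PCNA, the sliding clamp of DNA polymerases, at 62 and in width by REV3L at 2455 bp. POLH, POLK and TRIAP1 were without. Of the metabolism, stress and autophagy genes it was 11 of 15, and SESN1 was the highest and the widest of them. Its relative SESN3 had a height of 47, so that the highest peak of each of the 3 sestrin genes reached 44 or more. That of SESN1 is the peak over the promoter shared with CEP57L1, and SESN1 also had the weak peak, at 16. Of all peaks with a symbol, 89.6% were lower than 44. GLS2, SCO2, CPT1C and TSC2 were without.

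The case of BTG2 was not the only one of its kind. Of the 31 genes in the wider list that had no peak with their symbol, 11 had an apex within 1 kb of a start site under another symbol or none, as POLH did under XPO5 and TSC2 under NTHL1. Another 10 of the 31, TP53INP1 and ZMAT3 among them, lacked any peak overlapping them or less than 10 kb away. Conversely, TNFRSF10B and BID had a peak with their symbol but no apex within 1 kb of a start site. For the 11 and the 10, the matching shares among all protein-coding genes without such a peak were not worked out. Over all 20090 protein-coding genes, 30.0% had a peak with their symbol and 39.3% an apex within 1 kb. A peak over the gene or within 10 kb was found for 53.3%.

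**Figure D5:**
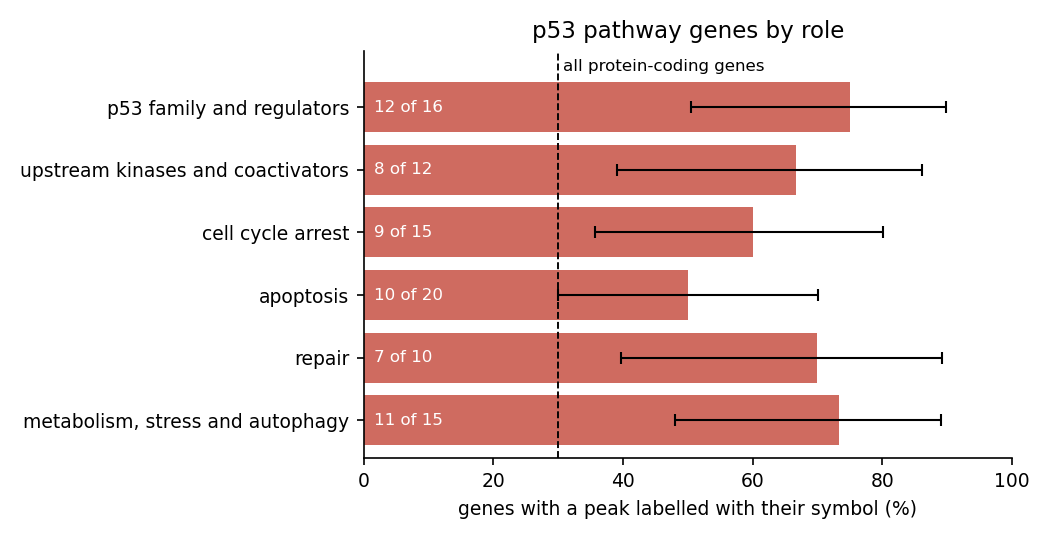
Share of p53 pathway genes with a peak that carries their symbol, by role. The horizontal axis is the percentage of genes, error bars are Wilson 95% intervals that cover counting only, and the dashed line is the share of all protein-coding genes, 30.0%. The share ranges from 10 of 20 for apoptosis to 12 of 16 for the p53 family and regulators.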

How the data were processed

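Cut&Run was done in U937-PR9 cells with 2 antibodies, 2 conditions and 2 replicates of each. The authors trimmed reads (Trimmomatic), mapped them to hg19 (Bowtie2), removed duplicates (SAMtools), called peaks with SEACR against control, and kept peaks shared by the replicates at an IDR below 0.05. The authors deposited the total signal of each peak and a score, which from its values is the largest signal and is called height. Any scaling of these, and whether they come from 1 replicate or pooled reads, are not given in the sources used here. Wider peaks offer more positions for a high signal or a motif, so height, width and motif counts are not independent. Depth per library is unknown.

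Here, peaks were ranked by height and width, ties taking the best rank. The apex was the midpoint of the interval of largest signal, or its start in 34 peaks that lack the end. Distances, exons and UTRs came from GENCODE release 44 on GRCh37, older symbols from RefSeq, and sequence from GRCh37. The motif search was tested on simulated sequence. The gene symbols are the authors', from UCSC known genes where the apex overlapped a promoter. Genes named are the 9, and by role the highest, the widest and, where 5 or fewer, those without a peak. SESN3, XPO5, NTHL1 and TNFRSF10B were named after their values were seen. A gene of the wider list and a site that enter the counts are not reported here singly. The 9 genes, the lists and the alternatives were chosen with earlier results of these data known. No test was run. Tools were Python 3.11.15 (pandas 2.3.3, numpy 2.4.6, matplotlib 3.10.9, scipy 1.17.1, pysam 0.24.0) and samtools 1.23.1.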

Additional observations from a re-analysis of the deposited data

How the results depend on the processing

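The count of 6 genes with a peak became 7 with an apex within 1 kb of a start site or with any peak over or within 10 kb of the gene, 4 without the peaks lower than the median, and 6 without those narrower than the median. The 57 genes of the wider list became 66 with an apex within 1 kb (39.3% of all protein-coding genes), 78 with any peak over or within 10 kb (53.3%), 49 without the peaks narrower than the median and 33 without those lower than it. For the cuts by height or width, the share of all protein-coding genes was not worked out. The 12 peaks of the rule became 20 with neighbours taken within 100 kb. The median height of 27 became 27.5 with the highest peak of each gene, 25 with the apexes within 1 kb of a start site (which adds BTG2) and 26 with the neighbours included, and for the median width of 1357 bp the same choices gave 1456.5, 1330 and 929.5 bp. The median distance to the start site rose from 53 to 74 bp with the peak centre in place of the apex. Over the whole peak, the 11 matches of a peak with one of 10 motifs became 27, since a wider window was searched. In all, 34 of 56 alternatives stayed within 1.5 times the count or left the value as it was, and 22 did not. No paired analysis was possible because each peak has a single value for both replicates, nor could either of them be left out.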
